A study of Mus musculus with 12 samples.

Results

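Short skipped exons are cassette exons of 51 bases or less that some transcripts of a gene contain and others leave out. They were taken from the authors' table of alternative splicing events in mouse colon by length alone, counted from the first to the last base of the exon, and each exon was paired with the skipping form of the same gene and position. This gave 1483 short exons in 1200 genes, of 10709 paired skipped exons of any length. The 12 libraries were made from RNA of whole colon and fall into 3 groups of 4 by treatment: FGF1, DSS and control. FGF1 is fibroblast growth factor 1, a secreted growth factor that the study gave to mice as a recombinant protein. DSS is dextran sulfate sodium, a sulfated polysaccharide that damages the lining of the mouse colon. The labels leave out whether the FGF1 mice also received DSS, and they give no strain, age, dose, duration or number of animals per library, so p-values measure only the spread between these libraries. Whole colon mixes epithelium, muscle, connective tissue, nerves and blood cells, so fewer cells of a type and less RNA per cell cannot be told apart.

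The smallest alternative exons, often called microexons, add only a few amino acids to a protein. When the length is a multiple of 3, the reading frame after the exon is the same with or without it. Such exons are best known from neurons, where the splicing factor SRRM4 promotes their inclusion, and from muscle, where QKI, RBFOX, MBNL and CELF proteins act on them. PTBP1 holds many neuronal exons out in other cell types, and ESRP1 and ESRP2 control epithelial splicing.

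The exons whose values are described in most detail are shown here with their neighbouring bases, because the set is defined by exon length. Sequences run 5′ to 3′ along the transcript and come from GENCODE vM21 transcripts of build GRCm38, with exon bases in capitals and up to 20 spliced bases of the flanking exons in lower case. The Mta1 exons lie at chr12:113120211-113120261 and chr12:113133541-113133576 on the plus strand. The Trim26 exon lies at chr17:36854284-36854301, the Vps29 exon at chr5:122356794-122356805 and the Spag9 exon at chr11:94113263-94113301, all on the plus strand. The St3gal3 exon lies at chr4:118054650-118054697, the Fermt2 exon at chr14:45476418-45476450 and the Anxa6 exon at chr11:54987051-54987068, all on the minus strand. The Myh11 exon of 21 bases lies at chr16:14248580-14248600 on the minus strand, the Clta exon at chr4:44031400-44031435, the Picalm exon at chr7:90194273-90194296, the Dnm2 exon at chr9:21490658-21490669 and the Gnas exon of 45 bases at chr2:174336747-174336791, the last 4 on the plus strand. The annotation places all of these within coding sequence. The Vps29 exon is shown alone.
Mta1, 51 bases: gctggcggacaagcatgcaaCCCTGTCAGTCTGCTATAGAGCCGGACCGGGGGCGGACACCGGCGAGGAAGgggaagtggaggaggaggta
Mta1, 36 bases: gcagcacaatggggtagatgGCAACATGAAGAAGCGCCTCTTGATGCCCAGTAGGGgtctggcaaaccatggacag
Trim26, 18 bases: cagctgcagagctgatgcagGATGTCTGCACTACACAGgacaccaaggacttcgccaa
Vps29, 12 bases: GCTGGGCACAGA
St3gal3, 48 bases: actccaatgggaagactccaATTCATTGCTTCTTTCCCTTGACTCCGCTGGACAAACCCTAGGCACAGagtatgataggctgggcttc
Spag9, 39 bases: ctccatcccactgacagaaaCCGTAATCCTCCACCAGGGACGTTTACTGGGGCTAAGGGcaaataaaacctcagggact
Fermt2, 33 bases: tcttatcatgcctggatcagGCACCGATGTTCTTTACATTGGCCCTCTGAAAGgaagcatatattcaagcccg
Anxa6, 18 bases: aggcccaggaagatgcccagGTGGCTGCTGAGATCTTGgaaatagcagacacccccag
Myh11, 21 bases: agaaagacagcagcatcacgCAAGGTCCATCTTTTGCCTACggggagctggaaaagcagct
Clta, 36 bases: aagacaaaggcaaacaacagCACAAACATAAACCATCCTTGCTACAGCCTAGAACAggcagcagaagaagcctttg
Picalm, 24 bases: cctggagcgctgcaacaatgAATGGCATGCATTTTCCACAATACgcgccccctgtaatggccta
Dnm2, 12 bases: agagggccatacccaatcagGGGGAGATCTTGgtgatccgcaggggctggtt
Gnas, 45 bases: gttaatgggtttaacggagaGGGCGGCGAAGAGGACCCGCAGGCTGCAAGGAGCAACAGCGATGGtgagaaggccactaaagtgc

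The short exons were mostly coding and mostly in whole codons. Of the 1483, 1084 lay within coding sequence (73.1%), against 4931 of the 9226 longer skipped exons (53.4%). A further 126 lay in 5′ UTRs and 28 in 3′ UTRs, and 112 crossed the start or end of the coding sequence. Another 128 belonged to noncoding transcripts, and 5 had no match in the annotation. The length was a multiple of 3 for 969 short exons (65.3%), against 4051 longer ones (43.9%). Among coding exons alone the multiple of 3 was held by 821 short exons (75.7%), against 2576 longer ones (52.2%). Of all other exons, crossing ones included, 148 short ones held it (37.1%), against 1475 longer ones (34.3%). These shares are close to the share that lengths without regard to codons would give. The share fell with length: 93.4% of 61 exons of 3 to 9 bases, 88.8% of 161 exons of 10 to 18 bases, 78.5% of 246 exons of 19 to 27 bases, 67.3% of 434 exons of 28 to 39 bases and 48.9% of 581 exons of 40 to 51 bases. Median GC content was 48% for the 1475 short exons with a sequence, against 50.3% for 9141 longer ones.

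Inclusion is the summed abundance (FPKM, fragments per kilobase of transcript, scaled to the size of the library) of transcripts that hold the exon, as a percent of that sum plus the abundance of transcripts that skip it. A library gave a value when both forms together reached 1 FPKM, and an exon counted as measured when at least 3 of the 4 libraries of each group gave one. In all, 1028 short exons were measured, in 861 genes, and 6409 longer ones. The short exons were mostly left out: their median inclusion over the 12 libraries was 17.7%, against 59.4% for longer exons. Of the measured short exons 340 were included below 5% (33.1%), 539 between 5% and 95% (52.4%) and 149 above 95% (14.5%). The longer exons had 27% below 5% and 28.5% above 95%. The median inclusion of short exons was 15.5% when 3 FPKM were required and 23.2% when each event row was taken as listed.

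Position in the gene and reading frame separated the short exons further. Coding short exons had a median inclusion of 29.2% (764 measured), against 92.6% for coding longer exons (3679 measured). Among the coding short exons, the 570 with a length in whole codons had a median of 21.2%, and 11.4% of them were above 95%. The 194 whose length shifts the frame had a median of 87.8%, and 39.7% of them were above 95%. Longer coding exons had medians of 84.8% in whole codons and 95.9% otherwise. These are descriptions across exons, several of which share a gene, and no test was made of them.

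The shortest classes had the lowest median inclusion. The median was 10.4% for 37 measured exons of 3 to 9 bases, 10.5% for 107 of 10 to 18 bases, 15.9% for 168 of 19 to 27 bases, 14.9% for 304 of 28 to 39 bases and 29.7% for 412 of 40 to 51 bases. It was 44.7% for 1167 exons of 52 to 75 bases, 56% for 1400 of over 75 and up to 100 bases, 68.3% for 2141 exons of over 100 and up to 150 bases, and 64.1% for 1701 exons of over 150 bases. At the length limit itself, the 53 measured exons of 51 bases had a median of 18.6%. The 28 of 52 bases and 75 of 54 bases had medians of 44.8% and 35.1%. Other single lengths near the limit went both ways, so these values show no step there. Medians were 43.5% at 48 bases, 12.2% at 49 bases and 55.7% at 50 bases. Above the limit they were 50.7% at 53 bases, 8.37% at 55 bases and 9.16% at 56 bases. Medians thus did not follow length in every step: the classes of 28 to 39 bases and of over 150 bases were each below the class before them.

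**Figure D1:**
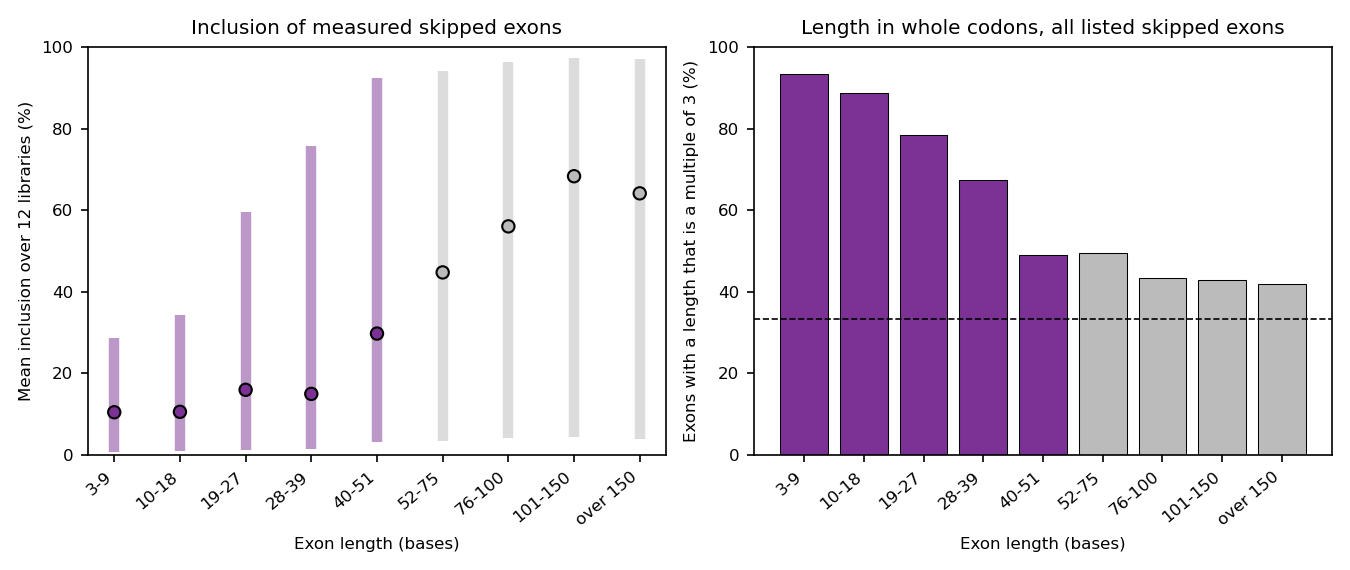
Left, mean inclusion over the 12 libraries (percent) by exon length class, with the median as a point and the interquartile range of measured exons as a bar. Right, the share of listed exons whose length is a multiple of 3, with the dashed line at the share for lengths taken without regard to codons; purple marks exons of 51 bases or less and grey marks longer ones. The median is 10.4% in the shortest class and 68.3% at over 100 and up to 150 bases, and the share in whole codons falls to 48.9% at 40 to 51 bases.

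The number of short exons seen in both forms varied between libraries. It was 828 to 899 in FGF1 libraries, 707 to 895 in DSS libraries and 921 to 975 in control libraries, so every control library was above every other. Longer exons moved the same way, with 4868 to 5276 in FGF1, 4334 to 5320 in DSS and 5409 to 5676 in control libraries. The number of genes at 1 FPKM or more was 11782 to 12245 in FGF1, 11190 to 12101 in DSS and 12287 to 12721 in control libraries, and its part in the difference was not tested. DSS 3 and DSS 4 stood lowest, with 707 and 742 short exons in both forms. Summed smooth muscle markers ran from 940 to 6240 FPKM in FGF1, 449 to 1570 in DSS and 2050 to 6630 in control libraries, and all 7 were detected. Read counts per library are not given in these files, so the depth is unknown. Tested short exons, those measured and included between 5% and 95%, numbered 539 in 475 genes. Their median inclusion per library was 25.9% to 33.3% in FGF1, 29.1% to 32% in DSS and 30.2% to 33.7% in control libraries, and these ranges overlap.

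Replicate spread was wide. The median standard deviation within a group was 12.6 points of inclusion for the 539 short exons, against 11 points for 2851 longer ones. Among the 488 short exons with a value in every library, the median distance between the highest and the lowest library was 44 points. It was 90 points or more for 57 of them and 20 points or less for 89. Of all tested values 6.61% were exactly 0% and 6.87% exactly 100%, where a library listed only one form. With this spread, the median standard error of a difference between groups was 9.99 points for DSS minus control.

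Mean inclusion of short exons was compared between the treatment groups with limma, with Benjamini-Hochberg adjustment over all 3390 tested exons of any length. One short exon passed an adjusted p of 0.05, in FGF1 against DSS. In DSS against control, limma called 0 of 539 short exons, where 0.0295% of all tested exons were called and the smallest adjusted p of a short exon was 0.0661; 42 short exons (7.79%) had an unadjusted p under 0.05, against 7.26% of all exons. In FGF1 against DSS, limma called 1 of 539, where 0.118% of all were called; 30 short exons (5.57%) had an unadjusted p under 0.05, against 5.58% of all. In FGF1 against control, limma called 0 of 539, where 0.0295% of all were called and the smallest adjusted p was 0.426; 20 short exons (3.71%) had an unadjusted p under 0.05, against 4.45% of all. The comparisons share libraries, so they are not independent of each other.

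Counting exons whose libraries did not overlap between groups gave shares near the background. In DSS against control there were 27 short exons (5.01%), 12 higher and 15 lower in DSS, where 4.81% of all exons were so separated, 2.77% higher and 2.04% lower. In FGF1 against DSS there were 20 (3.71%), 7 higher and 13 lower in FGF1, against 3.98% of all, 1.89% higher and 2.09% lower. In FGF1 against control there were 15 (2.78%), 9 higher and 6 lower in FGF1, against 3.01% of all, 1.95% higher and 1.06% lower. The median absolute difference was 7.34, 6.42 and 5.95 points in these 3 comparisons for short exons, and 6.32, 6.06 and 5.49 points for longer exons.

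**Figure D2:**
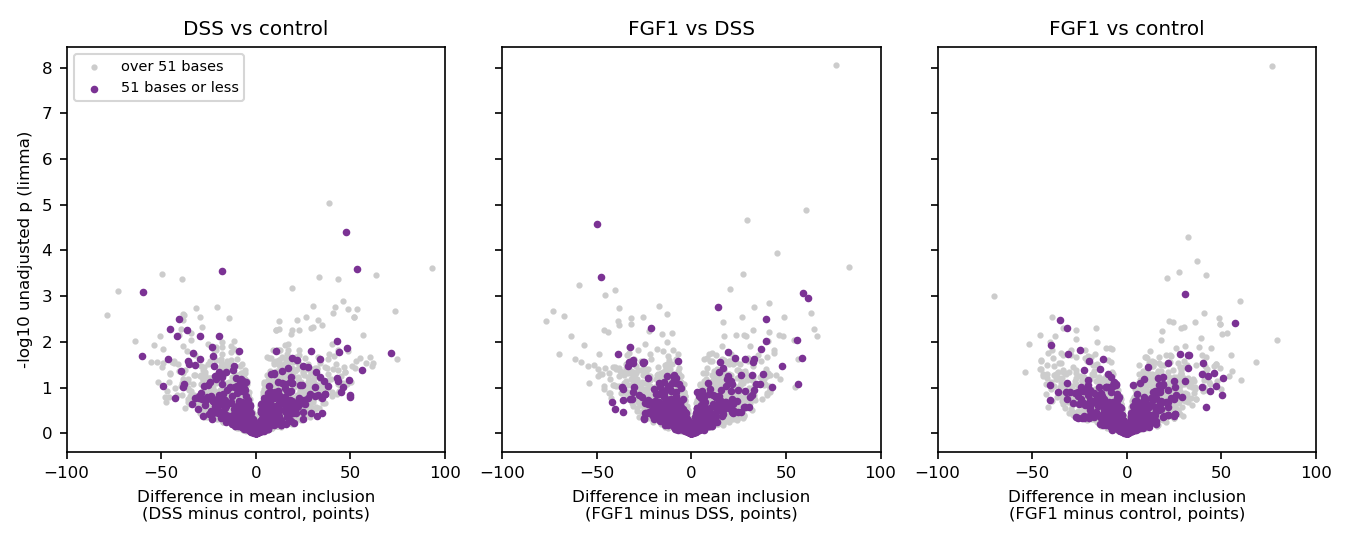
Difference in mean inclusion (points, first-named group minus second) against the limma unadjusted p (minus log10) for all 3390 tested exons, with exons of 51 bases or less in purple and longer exons in grey. In DSS against control, 12.1% of short and 9.12% of longer exons differed by more than 25 points. These shares were 8.91% and 8.07% in FGF1 against DSS, and 7.79% and 7.37% in FGF1 against control. Of the 539 short exons 1, the Mta1 exon at -49.8 points in FGF1 against DSS, passes the adjusted threshold.

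The called exon was the 51-base exon of Mta1, which encodes a subunit of the NuRD chromatin remodelling and deacetylase complex. Its inclusion was 5.2%, 2.05%, 19.7% and 10.1% in FGF1 libraries, 49%, 76%, 60.4% and 50.7% in DSS libraries, and 12.4%, 22.5%, 2.53% and 8.39% in control libraries. All 4 DSS libraries were above all others. The difference for FGF1 against DSS was -49.8 ± 7.24 points (limma, SE), with an adjusted p of 0.0219. For DSS against control it was 47.6 ± 7.24 points with an adjusted limma p of 0.0661, and for FGF1 against control -2.2 points. The DSS against control difference passed without DSS 2 (41.9 points, adjusted limma p of 0.0345), without control 2 (0.0436), at 0.5 or 3 FPKM (0.0452 and 0.0352) and without the variance trend (0.0438), over a range of 0.0345 to 0.407. The total of both forms was about level, at 10.7 ± 1.26 FPKM in FGF1, 10.3 ± 3.13 FPKM in DSS and 11.6 ± 1.25 FPKM in control libraries (SD, n = 4 each). Leaving out FGF1 1, FGF1 2 or FGF1 4 ended the call (adjusted limma p of 0.105, 0.107 and 0.0826), and so did the most abundant transcript of each form in place of the sum (-43.6 points, 0.368). It was also lost on the log2 odds scale (0.141), with those 2 groups alone in the fit (0.11), without DSS 3 and DSS 4 (0.0654) and without control 3 and FGF1 3 (0.0606). Over 26 alternative settings its adjusted p ran from 0.0155 to 0.368.

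A second short exon of Mta1, of 36 bases, lay on the other side in the same libraries. It is named after its values were seen. Its inclusion was 100%, 100%, 82.2% and 90.4% in FGF1, 53.4%, 30.4%, 42.8% and 87.1% in DSS, and 88.9%, 77.9%, 100% and 92.6% in control libraries. DSS 4 lay within the range of the others and the remaining DSS libraries below it. The difference for FGF1 against DSS was 39.7 ± 10.6 points (adjusted limma p of 0.39), and 51 points with a p of 0.0451 without DSS 4, over a range of 0.0451 to 0.817. The exons are not independent: 1 of the 3 transcripts that hold the 51-base exon is the 1 transcript that skips the 36-base exon. No transcript pair of the 51-base exon differs by that exon alone, so the value follows whole transcripts. The 36-base exon has no such pair either, and 291 of the 539 tested short exons (54%) have one. Of the exons named below for their differences between groups, those of Spag9, Fermt2, Arhgef10l, Ppp1r9a, Col16a1, Auts2, Mbtd1, Tns1 and Ccdc191 have none. The Trim26 exon at chr17:36854284-36854301 also has none.

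Spag9 and Vps29 encode proteins of intracellular transport. SPAG9, also called JIP4, is a scaffold that links JNK signalling and motor proteins, and VPS29 is a subunit of retromer, which recycles cargo from endosomes. The Spag9 exon of 39 bases was included at 86.2%, 72.4%, 54.4% and 80.2% in FGF1, at 0.15%, 55.9%, 0.00558% and 0.00846% in DSS, and at 62.6%, 70.3%, 84.4% and 76.9% in control libraries. In 3 of the 4 DSS libraries almost none was included, and DSS 2 lay just inside the FGF1 range. The differences were 59.3 ± 13.1 points for FGF1 against DSS (adjusted limma p of 0.238) and -59.5 ± 13.1 points for DSS against control (0.213). Without DSS 2 the adjusted p was 0.013 and 0.0189, with differences of 73.2 and -73.5 points. Over all alternatives the adjusted p ran from 0.013 to 0.709 for FGF1 against DSS and from 0.0189 to 0.716 for DSS against control. The Vps29 exon of 12 bases was at 64%, 55%, 70% and 57.3% in FGF1, at 0.0766%, 0.0434%, 0% and 0% in DSS, and at 67.6%, 66%, 6.73% and 3.61% in control libraries. Control libraries split into high and low pairs, and the FGF1 and DSS libraries did not overlap. The Vps29 difference was 61.6 ± 14 points for FGF1 against DSS (adjusted limma p of 0.26), and 0.00686 when those groups alone were fitted. Over all alternatives that p ran from 0.00686 to 0.585.

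Trim26 and St3gal3 encode enzymes, a RING-type E3 ubiquitin ligase and a Golgi sialyltransferase. The Trim26 exon of 18 bases was at 0.243%, 3.8%, 0.758% and 0.0654% in FGF1, at 50.5%, 43.4%, 54.3% and 47.5% in DSS, and at 5.1%, 45.3%, 58.8% and 36.5% in control libraries. FGF1 libraries were below every other library. A second tested 18-base exon of Trim26, at chr17:36856071-36856088, shares its skipping transcript and was at 4.05% to 50.6% in FGF1, 1.13% to 13.4% in DSS and 1.22% to 53.5% in control libraries. The differences were -47.7 ± 9.48 points for FGF1 against DSS (adjusted limma p of 0.159) and -35.2 points for FGF1 against control (0.713, and 0.0387 without control 1). Without control 1 the p for FGF1 against DSS was 0.0139, and with those groups alone 0.00686, within a range of 0.00686 to 0.587 over all alternatives. The St3gal3 exon of 48 bases was at 100%, 60%, 67.3% and 53.9% in FGF1, at 100%, 100%, 83.2% and 100% in DSS, and at 43.5%, 51.8%, 47.4% and 26% in control libraries. Control libraries were below all the others. The difference was 53.6 ± 10.1 points for DSS against control (adjusted limma p of 0.142), and 0.036 without FGF1 1, within a range of 0.036 to 0.508 over all alternatives.

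Fermt2 and Anxa6 showed low DSS values and are named here after their values were seen. FERMT2, or kindlin-2, activates integrins, and ANXA6 is a calcium-dependent membrane-binding annexin. The Fermt2 exon of 33 bases was at 17.2%, 22.4%, 22.4% and 11.3% in FGF1, at 0.794%, 6.34%, 6.49% and 2.66% in DSS, and at 18.9%, 23.8%, 24.6% and 21.6% in control libraries. DSS libraries were below every other. The difference was 14.3 ± 3.48 points for FGF1 against DSS (adjusted limma p of 0.316) and -18.1 ± 3.48 points for DSS against control (0.142). The total of both Fermt2 forms was 14.4 ± 8.66 FPKM in FGF1, 5.75 ± 3.25 FPKM in DSS and 27.9 ± 14.8 FPKM in control libraries (SD, n = 4 each). The Anxa6 exon of 18 bases was at 63.2%, 30.5%, 64.5% and 58.1% in FGF1, at 35.7%, 20.3%, 45.7% and below 1% in DSS, and at 66.6%, 64.3%, 62.6% and 71.3% in control libraries. DSS libraries were below the control libraries, by -40.5 ± 10.8 points (adjusted limma p of 0.331). Both forms of Anxa6 together were 16 ± 7.62 FPKM in FGF1, 6.74 ± 2.2 FPKM in DSS and 30.8 ± 4.81 FPKM in control libraries (SD, n = 4 each). Smooth muscle and fibroblast markers were also lower in DSS libraries (449 to 1570 and 11.2 to 73.7 FPKM) than in control libraries (2050 to 6630 and 203 to 321 FPKM), as were the summed 4 leukocyte markers (2.19 to 5.17 FPKM in DSS and 5.51 to 11 FPKM in control libraries), and their part in these inclusion values was not tested.

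**Figure D3:**
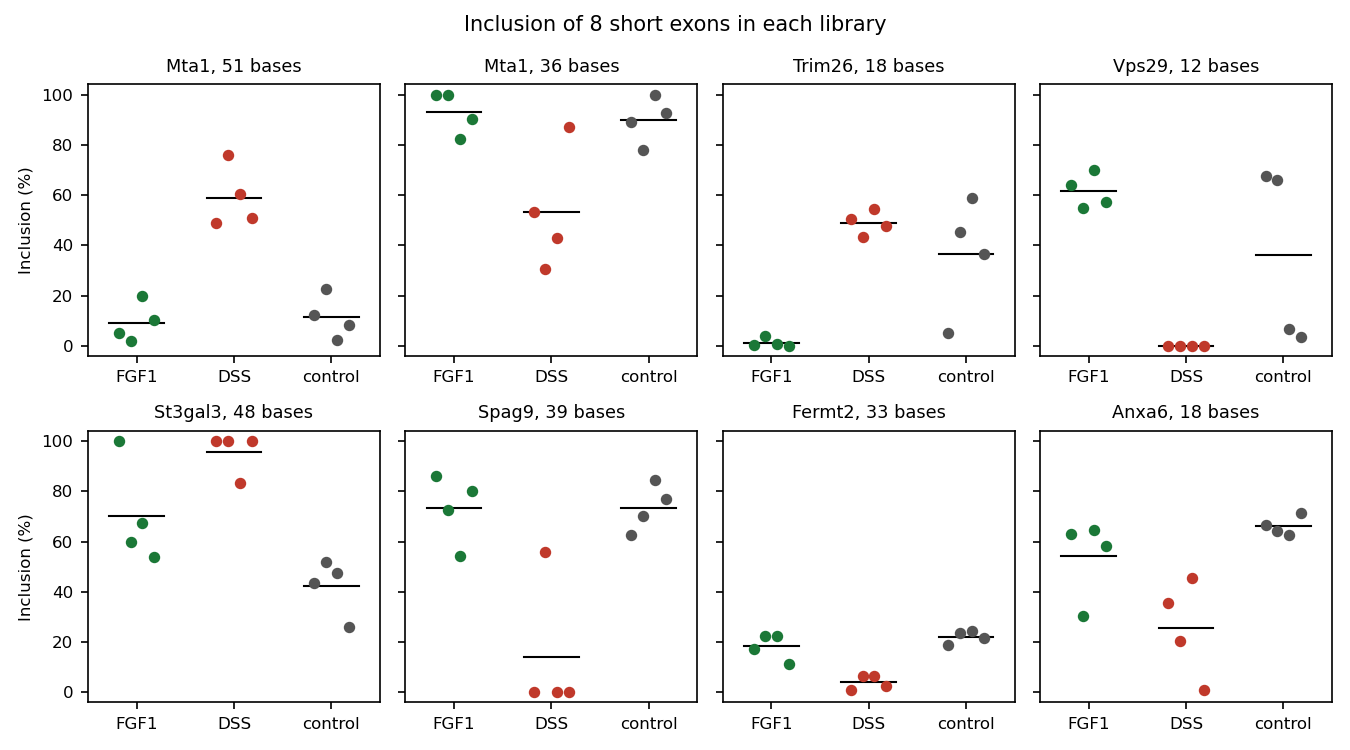
Inclusion (percent) of 8 short exons in each of the 12 libraries, with 1 point per library and a line at the group mean of 4. The Mta1 exon of 51 bases is at 49% to 76% in DSS and at or below 22.5% elsewhere, the Vps29 exon is near 0 in DSS, and the Trim26 exon is near 0 in FGF1.

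Several of the widest differences came from exons that switched between nearly 0% and nearly 100% in single libraries. The 30-base exon of Arhgap21, a GTPase-activating protein, was at 100%, 100%, 1.82% and 100% in FGF1 libraries. It was at 100% in all 4 DSS libraries and at 100%, 0.183%, 13% and 0.544% in control libraries. The difference for DSS against control, 71.6 ± 25.7 points, was the largest of any short exon and had an adjusted limma p of 0.633. The 15-base exon of Arhgef10l, a guanine nucleotide exchange factor, was near 100% in 3 FGF1, 3 DSS and 1 control library and near 0% in the rest. The 9-base exon of Emc1, a subunit of the endoplasmic reticulum membrane protein complex, was at 100% in 3 DSS libraries and 1 control library and at 0% in the rest of both groups. Its values in DSS 2 and DSS 3 rested on 1.65 and 1.39 FPKM, close to the 1 FPKM needed for a value. The 24-base exon of Cpeb2, an mRNA-binding regulator of translation, was at 60.8% to 88.5% in FGF1, at 0.271%, 89.8%, 100% and 93.3% in DSS, and at 0%, 0%, 86.3% and 0.188% in control libraries. None of these 4 passed the test in any comparison.

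The other exons with the largest differences were also not called. The 51-base exon of Ttc7b, part of a complex that holds a phosphatidylinositol 4-kinase at the plasma membrane, was at 6.09% to 96.2% in FGF1, at 0% to 1.16% in DSS and at 1.62% to 90.3% in control libraries. It was lowest in DSS, with a difference of -60.3 ± 22.2 points for DSS against control (adjusted limma p of 0.651). The 24-base exon of Ppp1r9a, which encodes the actin-binding protein neurabin, was at 15.4% to 98.6% in DSS and at 0% to 4.06% in control libraries (55.9 points, 0.664). The 51-base exon of Slmap, which encodes a tail-anchored membrane protein, was at 84.5% to 96.9% in FGF1 and at 14.1%, 22.6%, 22.8% and 88.7% in DSS libraries. The 45-base exon of Col16a1, a fibril-associated collagen, was at 99% to 100% in FGF1 and at 94.6%, 94.3%, 10.3% and 7.06% in DSS libraries, so DSS 3 and DSS 4 carried the difference. The 45-base exon of Auts2 had 3 values in each of these groups, 80.8% to 100% in FGF1 and 0%, 2.91% and 100% in DSS libraries. Some of these exons were close to the 1 FPKM needed for a value. Both forms together averaged 1.67 FPKM in DSS and 3.58 FPKM in control libraries for Ttc7b. They averaged 2.8 FPKM in DSS and 1.52 FPKM in control libraries for Ppp1r9a. For Auts2 they averaged 3.1 FPKM in FGF1 and 1.39 FPKM in DSS libraries.

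In FGF1 against control, the largest difference was that of the 50-base exon of Mbtd1, a chromatin reader with MBT repeats. It was at 93.3% to 100% in FGF1, at 69.1% to 97.8% in DSS and at 13.7%, 34.5%, 98.3% and 17.7% in control libraries. Both forms together were close to the 1 FPKM needed for a value, at 1.85 ± 0.538 FPKM in FGF1 and 1.79 ± 1.15 FPKM in DSS libraries. Control libraries had 3.63 ± 1.3 FPKM (SD, n = 4 each). The difference in inclusion was 57.1 ± 15.7 points (adjusted limma p of 0.713). Control 3 alone lay with the FGF1 libraries, and without it the difference was 76.2 points with an adjusted limma p of 0.00233, the lowest of a range up to 1 over all alternatives. The 39-base exon of Tns1, which encodes the focal adhesion protein tensin 1, was at 100% in all FGF1 libraries and in 2 control libraries, and at 26.8% and 0.425% in control 3 and control 4. It was also at 100% in the 3 DSS libraries with a value. The FGF1 4 value rested on 1.03 FPKM, close to the 1 FPKM needed, and DSS 4 gave no value. The 39-base exon of Ccdc191 was at 0% to 75.8% in FGF1 and at 0% to 6.02% in control libraries. Its forms together averaged 2.01 FPKM and 1.81 FPKM in these groups.

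Genes known for short alternative exons were taken from 4 lists that cover muscle, cell adhesion and shape, membrane traffic, and RNA binding. The 89 genes of the lists had 132 short exons, in 74 of the genes, and 77 of these exons were tested. None was called by limma at an adjusted p of 0.05 in any comparison. At an unadjusted p under 0.05 there were 5 in DSS against control, 2 in FGF1 against DSS and 2 in FGF1 against control. These are 6.49%, 2.6% and 2.6% of the 77, where 7.26%, 5.58% and 4.45% of all tested exons had such a p. The muscle list had 15 tested exons, with a median difference of 1.72 points for FGF1 against DSS and -6.15 points for DSS against control, where the medians over all exons were -0.0566 and 0.401. The adhesion list had 25, with medians of 2.83 and -5.3 points. The traffic list had 26, with medians of -2.84 and 0.825 points, and the RNA-binding list had 11, with medians of 2.23 and -1.46 points. For FGF1 against control the medians were -4.43 (muscle), -4.03 (adhesion), -1.88 (traffic) and 0.199 points (RNA binding). The median over all exons was 0.139 points in that comparison.

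Muscle genes held the most abundant of these exons. The 45-base exon of Myl6, the essential light chain of nonmuscle and smooth muscle myosin, distinguishes the nonmuscle from the smooth muscle form. It was included at 20.7% ± 5.22 in FGF1, 17.8% ± 5.24 in DSS and 26% ± 1.67 in control libraries (SD, n = 4 each), from 712 FPKM of both forms on average. The 37-base exon of Atp5c1, the gamma subunit of ATP synthase, whose skipping is known from muscle, was at 79.9% ± 5.92, 70.8% ± 17.5 and 70.4% ± 21 in FGF1, DSS and control libraries. The 31-base exon of Ppp1r12a, the targeting subunit of myosin phosphatase, was at 13.5% ± 5.12 in FGF1, 11.2% ± 7.82 in DSS and 21.8% ± 7.38 in control libraries. None of these exons passed the test in any comparison.

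The smooth muscle myosin heavy chain gene Myh11 has a 21-base exon in the head region, which marks the SM-B form, and a 39-base exon near the 3′ end, which marks SM2. The 21-base exon was at 50.1%, 14.8%, 39.7% and 45.5% in FGF1, at 13.5%, 11.8%, 91.9% and 91.2% in DSS, and at 52.9%, 33.7%, 12.5% and 37.1% in control libraries. The 39-base exon was at 43.8%, 52.6%, 56.7% and 49.1% in FGF1, at 67.8%, 50.2%, 5.04% and 6.13% in DSS, and at 41.9%, 63%, 66.7% and 59.4% in control libraries. DSS libraries thus split into pairs on both exons: DSS 3 and DSS 4 were highest on the 21-base exon and lowest on the 39-base exon of all 12. The exons share transcripts, since the 1 transcript with the 21-base exon is 1 of the 2 that skip the 39-base exon. Summed smooth muscle markers were 991 FPKM in DSS 3 and 449 FPKM in DSS 4, against 1570 and 1460 FPKM in the other DSS libraries. FGF1 4, with 940 FPKM of these markers, was at 45.5% and 49.1% on the 2 exons. The 7 markers, Acta2, Myh11, Des, Cnn1, Actg2, Tagln and Synm, include Myh11 itself, so their sum is not independent of this gene. The part of muscle content in these inclusion values was not tested. Group means of the 39-base exon differed by -25.5 ± 13.6 points for DSS against control (adjusted limma p of 0.739), within the spread.

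Exons of membrane traffic genes differed in their spread between libraries. The 24-base exon of Picalm, a clathrin assembly protein, was at 67.8% ± 5.38 in FGF1, 70.8% ± 7.3 in DSS and 74.6% ± 5.24 in control libraries. The 36-base exon of Clta, clathrin light chain A, was at 15.2% ± 9.07, 12.4% ± 8.88 and 17.4% ± 1.81 in FGF1, DSS and control libraries, with single low values of 2.63% in FGF1 4 and 0.0938% in DSS 3. The 12-base exon of Dnm2, the membrane-severing GTPase dynamin 2, was at 37.2% ± 8.23 in FGF1, 31.4% ± 14 in DSS and 23.6% ± 15 in control libraries. The 39-base exon of the coat protein gene Sec31a spread from 7.17% to 92.5% with low and high libraries in every group. The 45-base exon of Gnas, which separates the long from the short form of the stimulatory G protein alpha subunit, ran from 29.1% to 91.6% in FGF1, from 28.4% to 96.5% in DSS and from 27% to 85.9% in control libraries. The 42-base exon of Ndrg2 was at 47.5% ± 7.26 in FGF1, 47.8% ± 12.5 in DSS and 58% ± 18 in control libraries.

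Exons of adhesion and translation genes included none that passed the test. The 18-base exon of Ctnnd1, which encodes the cadherin-binding protein p120-catenin, was at 0.00547% to 40.4% in FGF1, 0.00229% to 47.1% in DSS and 0.535% to 34.7% in control libraries. Dst, a cytoskeletal linker of the plakin family, has 2 tested 18-base exons. The one that starts at chr1:34295666 differed by 5.72 points for DSS against control and by -11.5 points for FGF1 against DSS. The one at chr1:34296742-34296759 differed by -16.3 and 6.01 points. This listed exon was at 70.5% to 82.5% in FGF1, 22.6% to 100% in DSS and 83.4% to 90.3% in control libraries. FGF1 libraries were therefore all below the control libraries, by -10.3 ± 12.9 points (adjusted limma p of 1). The 18-base exon of Rps24, a protein of the small ribosomal subunit, was at 61% ± 6.3 in FGF1, 55.2% ± 16.9 in DSS and 73% ± 5.48 in control libraries. The overlapping 37-base and 34-base exons of the membrane skeleton gene Add1 were at 14.9% ± 9.04 and 9.05% ± 7.05 in FGF1, at 17.7% ± 2.56 and 13% ± 5.4 in DSS, and at 11% ± 10.7 and 13.1% ± 9.82 in control libraries. The remaining listed exons were those of 17 bases in Pdlim7, 36 bases in Ptprk, 24 bases in Gnas and 20 bases in Myl6, and each overlapped between all groups.

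**Figure D4:**
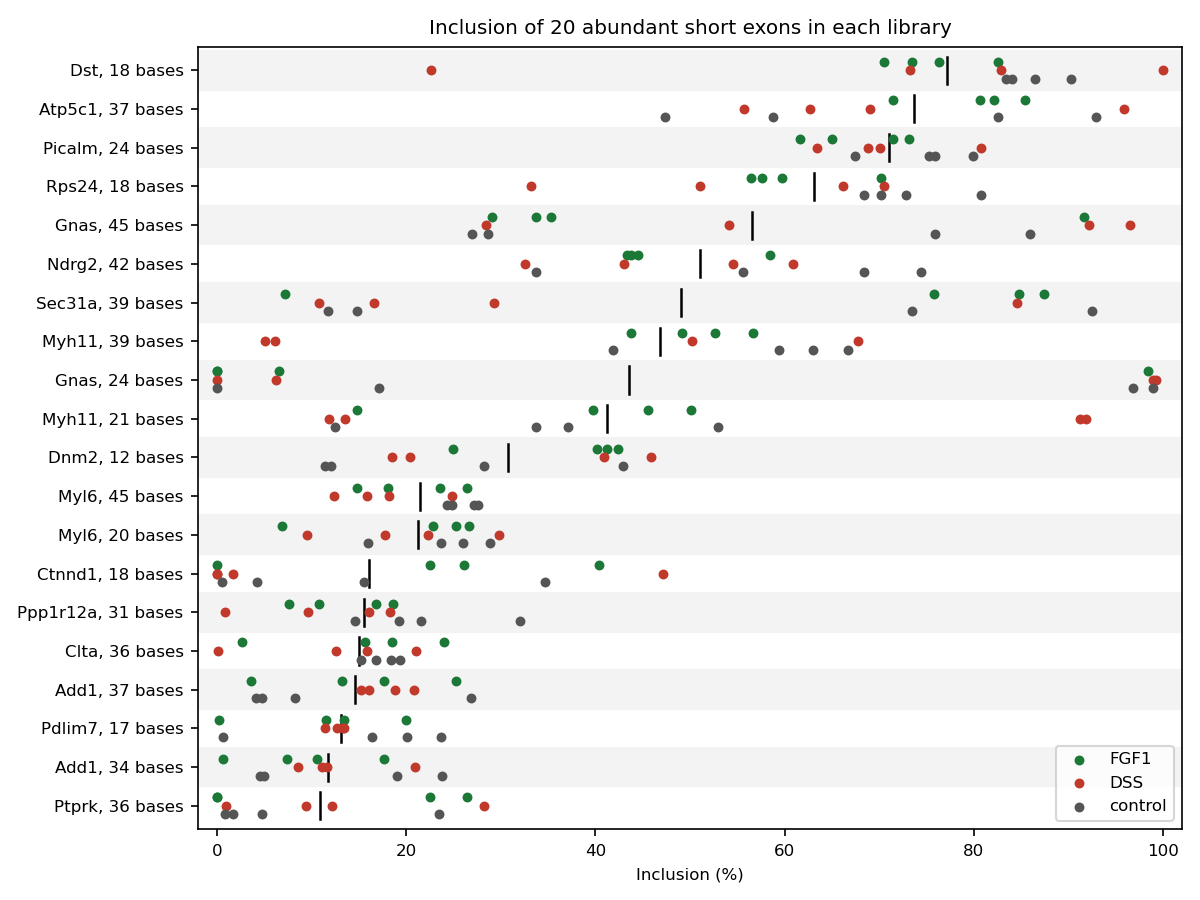
Inclusion (percent) of the 20 listed short exons with the highest FPKM of both forms and a mean inclusion of 10% to 90%. Each library is 1 point, and a black line marks the mean of the 12 libraries. Picalm and Myl6 hold to a narrow range, Gnas and Sec31a spread over most of the axis in every group, and for the Myh11 exons DSS 3 and DSS 4 lie apart from the other DSS libraries.

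Some short exons had nearly the same inclusion in every library. By range, the steadiest of the 354 exons with a value in all libraries and a mean of 10% to 90% was the 45-base coding exon of Il17rc, a subunit of the interleukin-17 receptor, at 70.9% to 75.3% in FGF1, 71.3% to 78.8% in DSS and 71.2% to 77.2% in control libraries. The 48-base exon of the cell polarity gene Llgl2 was at 80.1% to 87.9% in FGF1, 83.2% to 89.3% in DSS and 86.8% to 91.1% in control libraries. The 39-base exon of the kinesin gene Kif13a was at 14.2% to 19.9% in FGF1, 15.7% to 20.8% in DSS and 19.8% to 23.9% in control libraries. Exons in 5′ UTRs of Prr15l, Gnb1 and Ociad1 also held within 12.3 points over all libraries. The exons of Il17rc, Llgl2 and Kif13a have no transcript pair that differs by the exon alone, so their values follow whole transcripts. Those of Prr15l, Gnb1 and Ociad1 have such a pair. All of these genes were chosen for their narrow range, so the range is a description.

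Regulators of short exons were compared as gene levels, the summed FPKM of their listed transcripts. Neuronal microexon regulators were at or near 0: Srrm4 was at 0.073 to 0.117 FPKM in FGF1, 0.0587 to 0.184 FPKM in DSS and 0.144 to 0.25 FPKM in control libraries. Of 24 regulators 18 were tested, and 3 were lower in DSS against control by limma, where 10.1% of all 12578 genes tested were lower. Qk, which encodes the quaking RNA-binding protein, was at 1.39, 1.64, 2.21 and 1.15 FPKM in FGF1, at 1.43, 0.854, 0.488 and 0.614 FPKM in DSS, and at 3.12, 3.29, 5.3 and 4.39 FPKM in control libraries. All DSS libraries were below all control libraries, with a log2 fold change on the FPKM + 1 scale of -1.45 ± 0.2 (adjusted limma p of 0.00317). Rbpms, an RNA-binding protein of smooth muscle, had a log2 fold change of -1.49 ± 0.35 (0.0197), at 7.03 to 17.2 FPKM in DSS and 23.3 to 53.7 FPKM in control libraries. Celf2 had a log2 fold change of -0.76 ± 0.16 (0.0115), at 0.433 to 0.996 FPKM in DSS and 1.61 to 2.12 FPKM in control libraries. Smooth muscle, fibroblast and leukocyte markers were also lower in DSS than in control libraries, without overlap, and their part was not tested. None of the 18 passed in FGF1 against DSS, where 0.0557% of genes were called, or in FGF1 against control, where 0.0795% were; 3 of the 18 had an unadjusted limma p under 0.05 in each, where 12.4% and 13.9% of genes had one. Ptbp1, Esrp1, Esrp2, Srrm2 and Srsf11, each above 18 FPKM in every library, were not called in any comparison. Esrp2 was at 29.3 to 45 FPKM in FGF1, 26.9 to 34.7 FPKM in DSS and 18.6 to 24.9 FPKM in control libraries. Its log2 fold change for DSS against control was 0.5 ± 0.16 (adjusted limma p of 0.0582). Tra2a (-0.57 ± 0.17, 0.0501) and Rbpms2 (-1.56 ± 0.51, 0.0657) were lower in DSS and likewise not called.

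**Figure D5:**
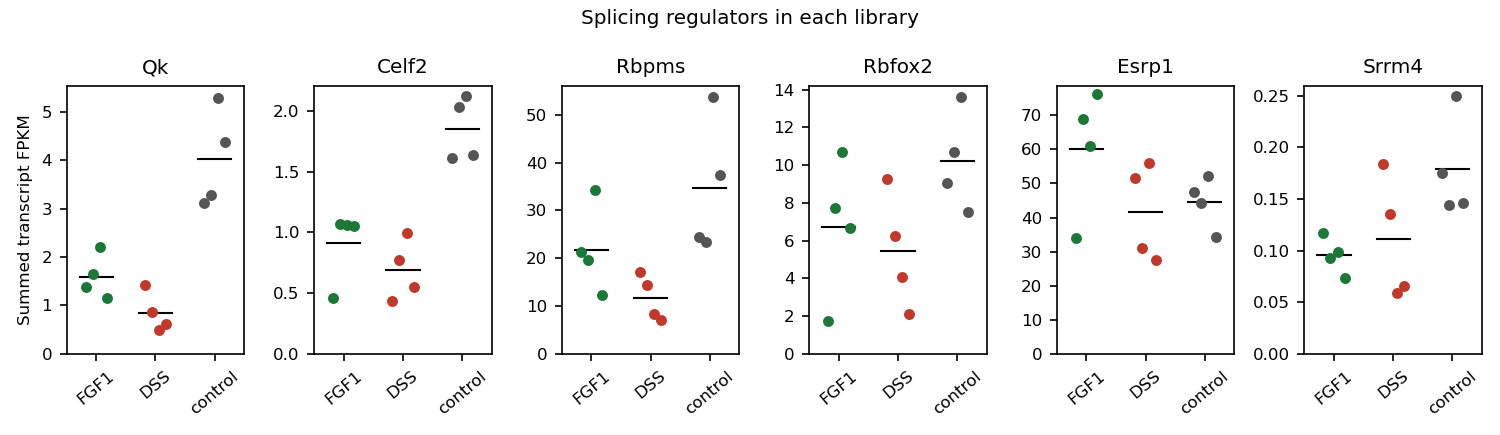
Summed transcript FPKM of 6 splicing regulators in each library, with 1 point per library and a line at the group mean of 4; each panel has its own axis. Qk, Celf2 and Rbpms are lower in DSS than in control libraries without overlap, Rbfox2 and Esrp1 overlap, and Srrm4 stays at or below 0.25 FPKM.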

How the data were processed

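RNA of 12 mouse colon libraries was analysed, 4 per group. The deposited values are transcript FPKM in a table of splicing events that covers all libraries. Per the submitters' processing notes, reads were handled on build GRCm38 with tools that include StringTie 1.3.4d, HISAT2 2.0.4, cutadapt 1.9 and edgeR. The sources used here do not give the event caller or its settings. Groups follow the treatment labels.

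The table holds 187383 event rows, 39787 of them skipped-exon rows, and 0 columns of other samples. A transcript's FPKM in a library was taken from any of its event rows, since 20.3% of skipped-exon values are 0 in libraries where the event is not listed although the transcript is. FPKM are not counts, so no count model was used. Inclusion was computed per library where both forms together reached 1 FPKM. It was tested with limma 3.58.1 (R 4.3.3; empirical Bayes, mean-variance trend, two-sided, 3 groups in one fit) over exons with a value in all but 1 library of each group and a mean inclusion of 0.05 to 0.95, with Benjamini-Hochberg adjustment. A missing value was left out of that exon's fit. Gene levels were tested with limma on log2(FPKM + 1) over genes of at least 1 FPKM in at least 4 libraries. The fit was run on simulated data with known shifts and normal noise, and only the sign of most shifted differences was required to be right. Such noise does not copy exons that switch fully in single libraries, so the run does not measure error rates for them. Symbols, positions and sequences come from GENCODE vM21, and 22330 of 22377 gene IDs had a symbol.

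Exons are named if called or if among the 8 with the largest differences in a comparison. They are also named if among the 20 listed exons with the highest FPKM of both forms and a mean inclusion of 0.1 to 0.9. Any other is marked. The members, lists and rules were chosen with earlier results of these data known.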

Additional observations from a re-analysis of the deposited data

Results flagged for a closer look

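In each group of 4 libraries, a highest or lowest value that stood far from the other 3 was looked for by Dixon's test at the 95% level; 25 values of 160 group checks stood out, where chance flags about 1 in 20. Many of these exons have values at the ends of the scale, where 3 equal values make any other value stand out.

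Arhgap21 (30 bases) was at 1.82% in FGF1 3, with the other FGF1 libraries at 100%, and at 100% in control 1, with the others at 0.183% to 13%. Arhgef10l (15 bases) was at 1.93% in FGF1 3 and at 0.289% in DSS 2, with the rest of each group at 99.9% to 100%, and at 100% in control 2, with the others at 0% to 0.692%. Emc1 (9 bases) was at 0% in DSS 1, with the others at 100%, and at 100% in control 2, with the others at 0%. Cpeb2 (24 bases) was at 0.271% in DSS 1, with the others at 89.8% to 100%, and at 86.3% in control 3, with the others at 0% to 0.188%. Slmap (51 bases) was at 88.7% in DSS 4, with the others at 14.1% to 22.8%, and at 37.6% in control 2, with the others at 96.7% to 99.7%.

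Spag9 (39 bases) was at 55.9% in DSS 2, with the others at 0.00558% to 0.15%. Ctnnd1 (18 bases) was at 47.1% in DSS 1, with the others at 0.00229% to 1.69%. St3gal3 (48 bases) was at 83.2% in DSS 3, with the others at 100%. Col16a1 (45 bases) was at 59.7% in control 1, with the others at 97.8% to 100%.

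FGF1 1 and FGF1 3 gave the flags of the FGF1 group. In FGF1 1, the Gnas exon of 45 bases was at 91.6% (others 29.1% to 35.3%) and that of 24 bases at 98.4% (others 0% to 6.5%), Ndrg2 was at 58.4% (others 43.3% to 44.5%), Dnm2 at 24.9% (others 40.2% to 42.4%) and Mbtd1 at 93.3% (others 99.3% to 100%). In FGF1 3, Sec31a was at 7.17% (others 75.8% to 87.4%).

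Among the regulators, Celf2 was at 0.46 FPKM in FGF1 1 (others 1.05 to 1.07 FPKM), Rnps1 at 35.2 FPKM in DSS 1 (others 21.4 to 23.5 FPKM), Ptbp1 at 51.8 FPKM in control 1 (others 58.9 to 60.1 FPKM) and Tra2b at 35.3 FPKM in control 3 (others 30.7 to 31.5 FPKM).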

How the results depend on the processing

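Counts of called short exons are small and move with the settings. In DSS against control the main count of 0 became 1 with a minimum of 0.5 FPKM or of 3 FPKM, 1 without the mean-variance trend, 2 with those 2 groups alone in the fit, 1 without DSS 3 and DSS 4, and 2 without control 3 and FGF1 3. In FGF1 against DSS the main count of 1 became 2 on the arcsine scale, 2 on the log2 odds scale and 2 with those groups alone. It became 3 without DSS 3 and DSS 4. The Mta1 exon was not among the calls on the log2 odds scale (adjusted limma p of 0.141), with those groups alone (0.11) or without DSS 3 and DSS 4 (0.0654); in the first 2 of these the exons called were those of Vps29 and Trim26. It became 0 with no filter on mean inclusion, with the replicate block, with the most abundant transcript of each form, without control 3 and FGF1 3, and with a muscle marker score added to the model. A length limit of 27 bases, and keeping only exons whose transcript pair differs by the exon alone, also gave 0, but both leave out the 51-base Mta1 exon by construction and say nothing of its stability. In FGF1 against control the main count of 0 became 1 without DSS 3 and DSS 4 and 2 without control 3 and FGF1 3. Leaving out single libraries gave 0 to 2 calls in DSS against control, 0 to 3 in FGF1 against DSS and 0 to 1 in FGF1 against control. Regulators called numbered 2 to 5, 0 to 0 and 0 to 1 in the same comparisons. The count of 3 regulators in DSS against control became 5 without DSS 2. The causes were not tested.

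The labels do not say that a replicate number is shared between groups. Deviations from the group means correlated between same-numbered libraries by -0.0592 to 0.061. With values this noisy, such correlations cannot show whether samples were paired. With the replicate block the count was 0 in each of the 3 comparisons, and the Mta1 difference was -49.8 points with an adjusted limma p of 0.141. The one difference that changed sign was that of Arhgef10l in DSS against control, 49.8 points in the main fit and -6.65 points with the muscle score in the model. The settings on listed event rows, left-out library pairs, muscle score and exon-alone pairs were added after the data were seen. FPKM without read counts leave the precision of each inclusion value unknown, and the spread between libraries is its only measure here.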

Other observations

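Abundant short exons outside the lists varied in their own ways, and they were picked for their summed FPKM. The 33-base exon of Dmbt1, a mucosal scavenger receptor protein made by epithelium, was at 41.9%, 89.6%, 84.6% and 30.8% in FGF1, at 91.7%, 95.3%, 26.5% and 92.8% in DSS, and at 84.5%, 88.7%, 91.3% and 85.9% in control libraries. Control libraries lay close together, while 2 FGF1 libraries and DSS 3 were low. The 31-base exon of Calml4, a calmodulin-like protein of the brush border, was at 50.6%, 99.8%, 62.2% and 99.1% in FGF1, at 99.5%, 92.9%, 64.6% and 97.7% in DSS, and at 95.3% to 99.6% in control libraries. The 27-base exon of Prom1, which encodes the membrane protein prominin 1, was at 2.88% to 28.8% in FGF1, 6.94% to 32.7% in DSS and 3.69% to 32.7% in control libraries.

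Others were steady. The 41-base exon of the noncoding RNA Gas5 was at 58.4% to 66% in FGF1, 52.7% to 63.2% in DSS and 57.8% to 63.8% in control libraries. The 39-base exon of Pcbp2, a poly(rC)-binding protein, was at 82.1% to 93.1% in FGF1, 72.4% to 88.8% in DSS and 79.9% to 88.1% in control libraries.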
